A study of Mus musculus with 6 samples.

Results

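The genes described here are 38 cell cycle genes without the MCM helicase, picked by name from the 32090 genes of the table. Of these, 10 act in S phase or at its entry and 28 act in mitosis or peak around it. They were measured by bulk RNA sequencing in Treg cells, the regulatory T cells that restrain immune responses and are defined by the transcription factor Foxp3, sorted as live CD45+ CD4+ Foxp3+ cells from the colonic lamina propria of untreated C57/BL6 mice. The KO group (Il23rflflFoxp3YFP-Cre) carried floxed alleles of Il23r, the interleukin-23 receptor gene, together with a YFP-tagged Cre recombinase in Foxp3, so that deletion is directed to cells that express Foxp3. The WT group (Foxp3YFP-Cre) carried the same Cre without the floxed alleles. Each group had 3 libraries, and each library pooled at least 5 mice. The labels give neither the age nor the sex of the mice.

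A dividing cell copies its DNA in S phase and separates the copies in mitosis. Entry into S phase is driven by E2F transcription factors and cyclin E, which switch on the enzymes that make deoxynucleotides and the proteins of the replication fork. Later, cyclin A and cyclin B with the kinase Cdk1 start mitosis, the spindle of microtubules attaches to the centromeres, and the anaphase-promoting complex ends it by marking its targets for destruction. Many Treg cells of the gut lining are activated cells, and a share of them is in cycle at any time, which is why transcripts such as Mki67 are read as a measure of proliferation.

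The promoters of the 2 classes were read for known cell cycle elements, in RefSeq windows of GRCm38.p6 (250 bases before and 50 after the annotated start) that were found for 31 of the 38 members. The cell cycle homology region, spelled TTTGAA, is an element of genes that peak in G2 and mitosis, and the CCAAT box is bound by the factor NF-Y. Both words were searched on both strands. TTTGAA occurred in 0 of 8 S-phase windows and in 17 of 23 mitotic windows (73.9%), against 18.1% of the windows of all 27025 genes in the table. CCAAT occurred in 4 of 8 S-phase windows (50%) and in 20 of 23 mitotic windows (87%), against 37.9% of all. The strict E2F words TTTGGCGC, TTTCCCGC and TTTCGCGC were found in 0 S-phase windows and in 1 mitotic window, that of Cdk1, against 1.91% of all. A TTTGAA can share a base with a reverse CCAAT, as it does in Cdca8. In Kif23 the TTTGAA lies 3 to 8 bases and in Bub1b 41 to 46 bases after the start. These words are descriptions of the sequence, and their absence says only that these letters are not in the window.

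**Figure D1:**
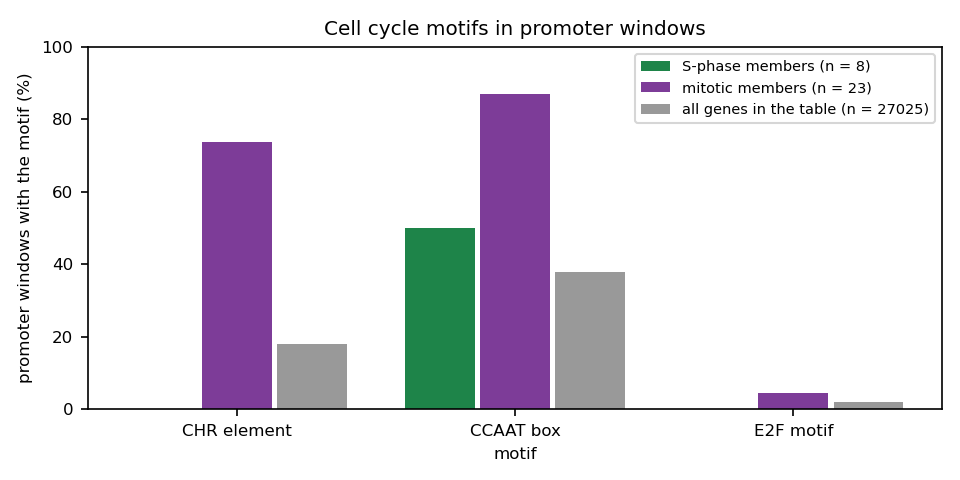
Share of promoter windows (percent, vertical axis) that hold each of 3 cell cycle motifs (horizontal axis), for 8 S-phase members (green), 23 mitotic members (purple) and 27025 genes of the RefSeq table (grey). The TTTGAA element (CHR) is in 0 of the S-phase windows and in 73.9% of the mitotic ones.

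The last 150 bases before the start are printed 5′ to 3′ on the gene's strand for 6 members, with TTTGAA and CCAAT, read on either strand, in capitals. Pcna (chr2:132253181-132253330, minus strand), Rrm1 (chr7:102441545-102441694, plus strand) and Rrm2 (chr12:24708104-24708253, plus strand) are shown because they are the S-phase members whose levels did not overlap between the groups, and they hold CCAAT without TTTGAA. Mki67 (chr7:135716380-135716529, minus strand), Top2a (chr11:99024190-99024339, minus strand) and Cdc20 (chr4:118437344-118437493, minus strand) are shown for the pairing of TTTGAA with CCAAT in the mitotic class.
Pcna: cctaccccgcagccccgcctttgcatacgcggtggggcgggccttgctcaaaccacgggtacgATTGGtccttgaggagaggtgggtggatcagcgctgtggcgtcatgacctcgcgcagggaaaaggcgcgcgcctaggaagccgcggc
Rrm1: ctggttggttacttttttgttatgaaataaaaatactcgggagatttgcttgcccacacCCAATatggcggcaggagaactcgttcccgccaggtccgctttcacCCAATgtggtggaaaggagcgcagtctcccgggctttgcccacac
Rrm2: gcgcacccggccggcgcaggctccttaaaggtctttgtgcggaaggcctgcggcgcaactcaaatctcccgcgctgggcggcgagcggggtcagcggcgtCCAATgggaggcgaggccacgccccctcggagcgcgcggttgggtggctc
Mki67: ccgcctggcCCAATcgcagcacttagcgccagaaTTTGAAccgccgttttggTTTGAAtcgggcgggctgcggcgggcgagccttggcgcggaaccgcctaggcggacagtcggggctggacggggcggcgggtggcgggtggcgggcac
Top2a: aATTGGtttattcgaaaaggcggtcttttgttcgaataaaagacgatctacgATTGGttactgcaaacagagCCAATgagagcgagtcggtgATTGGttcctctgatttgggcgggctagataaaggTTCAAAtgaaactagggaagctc
Cdc20: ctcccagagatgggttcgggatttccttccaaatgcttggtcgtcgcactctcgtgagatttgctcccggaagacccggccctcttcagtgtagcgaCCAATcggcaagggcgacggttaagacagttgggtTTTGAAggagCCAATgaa

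Total estimated counts per library lay between 16171278 and 20654340 in KO and between 9680503 and 18734331 in WT. The RNA integrity number was 7.9 to 8.8 in KO, and 5 in WT2 and 8.2 to 8.3 in the other WT libraries. The library labelled KO1 and WT1 shared a sort batch, KO2 and KO3 had a batch each, and WT2 and WT3 shared another. Il23r was measured at 18.4, 4.99 and 8.96 CPM in the KO libraries, against 19.4, 38.3 and 13.6 CPM in the WT libraries, so that the library labelled KO1 lay inside the WT range. KO2 and KO3 resembled each other more than any other pair did, with an SD of log2 differences over all genes of 0.584, against 1.05 to 1.65 in the other 14 pairs. Xist was at 1182, 3472 and 2066 CPM in the KO libraries, against 0.0943, 0 and 0.284 CPM in the WT libraries, so that sex and genotype cannot be told apart. Foxp3 stood at 1603, 1126 and 1366 CPM in the KO libraries, against 1384, 567 and 1178 CPM in the WT libraries. In all lists of values below, the libraries of a group come in the order 1, 2, 3, and CPM (counts scaled to a common library size after TMM normalization) are the unit of level. A count of 0 is compatible with up to 3 counts, or 0.133 to 0.188 CPM in KO and 0.170 to 0.308 CPM in WT, by counting error alone.

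Of the 38 members, all of which had enough counts to be tested, 0 passed in KO against WT over all genes (edgeR quasi-likelihood test, Benjamini-Hochberg adjusted p from 0.455 to 0.985), where 0.0239% of 12557 genes did. At an unadjusted p under 0.05, 5 members had lower levels in KO (Kif23, Rrm2, Rrm1, Aurkb and Mki67), against 4.35% of all genes, and 0 had higher levels, against 5.02%. In limma-voom 0 members passed, and in DESeq2 Kif23 alone did among 36 members with an adjusted p (adjusted p = 0.039), where 1.89% of all genes passed. Of the 38 members, 29 had a negative log2 fold change (KO over WT), with a median of -0.47, against 52.6% negative and a median of -0.039 over all genes tested. The values ranged from -2.73 in Ccnb1 to 1.62 in Bub1b. The excess of negative values depended on WT1. Without this library the median over the 38 members was 0.030, with 21 of them positive, against a median of -0.0089 over all genes. Were a level lower, a bulk sample could not tell fewer dividing cells from less of these transcripts per dividing cell.

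**Figure D2:**
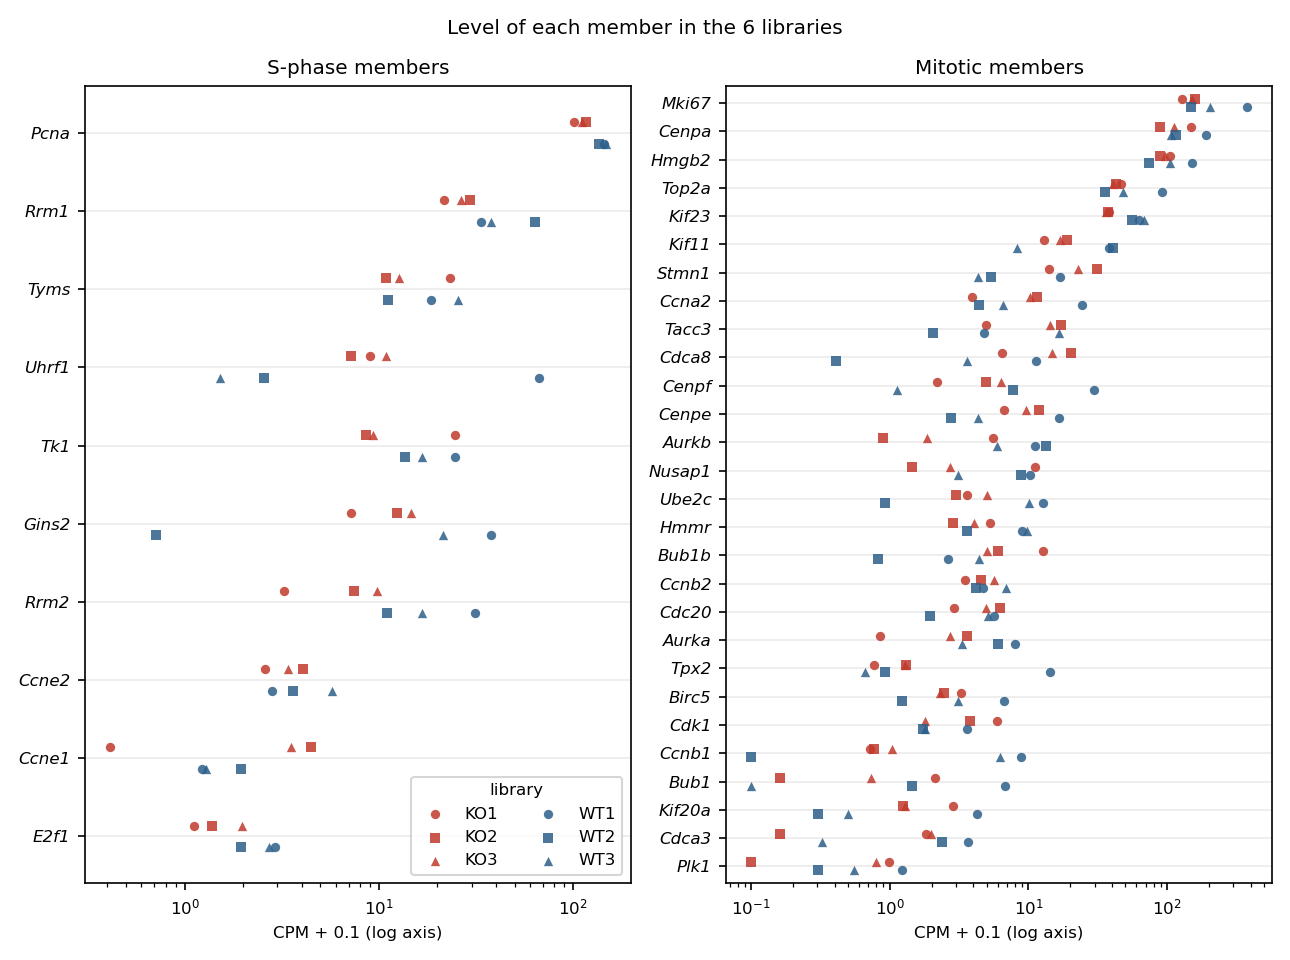
Level of each member (CPM + 0.1, log axis) in every library, KO in red and WT in blue, S-phase members on the left and mitotic members on the right, each ordered by mean level. The 3 KO points of Pcna, Rrm1, Rrm2, Kif23 and Aurkb all lie left of the 3 WT points, and those of Bub1b to the right.

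In 5 members every KO library was below every WT library (13.2% of 38, against 8.01% of all genes tested), and in 1 member, Bub1b, every KO library was above (2.63%, against 9.68%). S-phase members made up 3 of the 5 (Pcna, Rrm1 and Rrm2, of 10) and mitotic members 2 (Kif23 and Aurkb, of 28). For each of these 6 members, an exact two-sided permutation test on log2 CPM gave p = 0.1, the smallest that 3 libraries against 3 can give. Groups that do not overlap always give this value, so the test adds nothing to the count. Counting both directions, these 6 were 15.8% of the members, against 17.7% of all genes tested. With KO2 and KO3 summed into 1 library, 8 members did not overlap (21.1%), against 20.6% of all genes in that layout.

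Among the S-phase genes, the sliding clamp of the DNA polymerases, Pcna (Entrez 18538), was measured at 101, 117 and 111 CPM in the KO libraries, against 145, 135 and 147 CPM in the WT libraries. Its groups stood apart with little spread in either, and the log2 fold change was -0.38 (SE 0.19, edgeR adjusted p = 0.557). Over the 6 fits that left out 1 library it stayed between -0.43 and -0.33. RefSeq lists pseudogenes named after Pcna, Tyms, Ccnb1 and Ccnb2, whose reads could be shared with these 4 members.

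Ribonucleotide reductase, which makes deoxynucleotides from ribonucleotides, was lower in KO in both of its subunits as measured, without either passing the test. The large subunit Rrm1 (Entrez 20133) was at 21.5, 29.5 and 26.5 CPM in the KO libraries, against 33.3, 63.8 and 37.7 CPM in the WT libraries, with WT2 far above the other WT libraries. Its log2 fold change was -0.80 (SE 0.34, edgeR adjusted p = 0.519). The small subunit Rrm2 (Entrez 20135), whose transcript is made in S phase, was at 3.16, 7.36 and 9.72 CPM in the KO libraries, against 31.2, 10.9 and 16.5 CPM in the WT libraries. All 3 KO libraries were under the lowest WT library, at a log2 fold change of -1.54 (SE 0.60, edgeR adjusted p = 0.499). When 1 library was left out it lay between -1.89 and -1.03 for Rrm2, the value nearest 0 being that without WT1. For Rrm1 it lay between -0.97 without WT1 and -0.47 without WT2.

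The enzymes of thymidine nucleotide supply overlapped between the groups. Thymidylate synthase, Tyms, which makes thymidylate anew, was at 23.1, 10.8 and 12.5 CPM in the KO libraries, against 18.5, 11.1 and 25.5 CPM in the WT libraries. Thymidine kinase, Tk1, which salvages thymidine, was at 24.4, 8.52 and 9.22 CPM in the KO libraries, against 24.4, 13.6 and 16.6 CPM in the WT libraries. In both genes the library labelled KO1 was well above KO2 and KO3. It lay inside the WT range in Tyms and level with the highest WT library in Tk1. Their log2 fold changes were -0.25 (SE 0.49) for Tyms and -0.37 (SE 0.53) for Tk1, which was -1.05 without the library labelled KO1 and -0.11 without WT1.

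Gins2 and Uhrf1 varied more within WT than between the groups. Gins2, a subunit of the GINS complex that works with the MCM helicase at the fork, was at 7.13, 12.3 and 14.6 CPM in the KO libraries, against 37.6, 0.617 and 21.4 CPM in the WT libraries. WT2, with 6 counts, lay far below every other library. Uhrf1, which brings the maintenance DNA methyltransferase to newly copied DNA, was at 8.86, 7.12 and 10.8 CPM in the KO libraries, against 66.3, 2.47 and 1.42 CPM in the WT libraries. Here WT1 alone was high, and WT2 and WT3 lay under all KO libraries, so that the log2 fold change of -1.38 (SE 1.17) became 2.21 without WT1. For Gins2 it was -0.81 (SE 0.97) and 0.017 without WT1.

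The factors that open S phase had few counts, at most 99 in a library. The transcription factor E2f1 was at 1.02, 1.28 and 1.88 CPM in the KO libraries, against 2.83, 1.85 and 2.61 CPM in the WT libraries, a log2 fold change of -0.80 (SE 0.85, edgeR adjusted p = 0.797), with KO3 just above WT2. Ccne2, a cyclin E, was at 2.49, 3.95 and 3.32 CPM in the KO libraries, against 2.73, 3.49 and 5.62 CPM in the WT libraries. The other cyclin E, Ccne1, was at 0.312, 4.38 and 3.45 CPM in the KO libraries, against 1.13, 1.85 and 1.19 CPM in the WT libraries and was the only S-phase member with a positive log2 fold change, 0.96 (SE 1.06), carried by KO2 and KO3 with the library labelled KO1 lowest of all 6.

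Among the mitotic genes, the one with the most counts was Mki67 (Entrez 17345), whose protein coats mitotic chromosomes. It was at 127, 158 and 150.5 CPM in the KO libraries, against 377, 148 and 204 CPM in the WT libraries. WT1 stood far above the rest, WT2 lay among the KO libraries, and the log2 fold change was -0.75 (SE 0.32, edgeR adjusted p = 0.522), or -0.29 without WT1. Top2a, the topoisomerase that untangles sister chromatids, was at 46.1, 42.5 and 40.4 CPM in the KO libraries, against 91.95, 35.5 and 47.7 CPM in the WT libraries, again with WT1 alone apart. Hmgb2, a chromatin protein that bends DNA, was at 105, 88.5 and 96.1 CPM in the KO libraries, against 151, 74 and 104 CPM in the WT libraries. The log2 fold changes of Top2a and Hmgb2, -0.44 and -0.18, became 0.042 and 0.11 without WT1.

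All 3 mitotic cyclins had negative log2 fold changes and their kinase a positive one, and all 4 overlapped between the groups. Cyclin A2, Ccna2, was at 3.83, 11.4 and 10.1 CPM in the KO libraries, against 24.2, 4.32 and 6.47 CPM in the WT libraries. Cyclin B1, Ccnb1 (Entrez 268697), was at 0.623, 0.669 and 0.940 CPM in the KO libraries, against 8.68, 0 and 6.18 CPM in the WT libraries, with 14, 11 and 15 counts in KO and 92, 0 and 109 in WT. It was high in WT1 and WT3 and at 0 counts in WT2, and the log2 fold change was -2.73 (SE 1.42, edgeR adjusted p = 0.572). Cyclin B2, Ccnb2, stayed close together in the 6 libraries, at 3.38, 4.44 and 5.52 CPM in the KO libraries, against 4.62, 4.11 and 6.75 CPM in the WT libraries. The kinase Cdk1 was at 5.88, 3.71 and 1.69 CPM in the KO libraries, against 3.49, 1.64 and 1.70 CPM in the WT libraries, a log2 fold change of 0.72 (SE 0.84).

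Kif23 (Entrez 71819), the motor of the centralspindlin complex that divides the cell in cytokinesis, was the most uniform of the mitotic members within each group. It was at 37.8, 37.2 and 36.2 CPM in the KO libraries, against 62.1, 56.01 and 67.6 CPM in the WT libraries. The highest KO library was well below the lowest WT library, and the log2 fold change was -0.74 (SE 0.24, edgeR adjusted p = 0.455), between -0.82 and -0.67 over the fits that left out 1 library. The other kinesins did not share this pattern. Kif11, which pushes the spindle poles apart, was at 12.8, 18.9 and 16.7 CPM in the KO libraries, against 38.2, 40.5 and 8.11 CPM in the WT libraries, with WT3 below all KO libraries. Kif20a, a partner in cytokinesis, was at 2.76, 1.16 and 1.19 CPM in the KO libraries, against 4.15, 0.206 and 0.397 CPM in the WT libraries, a log2 fold change of 0.11 (SE 1.20) that rested on counts as low as 2 in WT2.

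The chromosomal passenger complex, which corrects faulty attachments of chromosomes to the spindle, had log2 fold changes of both signs among its subunits. None of them passed in edgeR, and the scaffold Incenp is given further below. The kinase of the complex, Aurkb (Entrez 20877), was at 5.43, 0.791 and 1.76 CPM in the KO libraries, against 11.03, 13.4 and 5.79 CPM in the WT libraries. All KO libraries were below all WT libraries, although the library labelled KO1 came close to WT3, and the log2 fold change was -1.91 (SE 0.82, edgeR adjusted p = 0.522). The subunit Cdca8 was at 6.37, 20.3 and 14.8 CPM in the KO libraries, against 11.3, 0.308 and 3.52 CPM in the WT libraries, so that its groups overlapped. The log2 fold change of Cdca8 was in the other direction, 1.45 (SE 0.99, edgeR adjusted p = 0.664). It was 2.80 without WT1 and 0.89 without WT2, where Cdca8 had 3 counts. Survivin, Birc5, was at 3.16, 2.37 and 2.19 CPM in the KO libraries, against 6.60, 1.13 and 3.01 CPM in the WT libraries, where the groups overlapped.

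Of the spindle checkpoint kinases, Bub1b (Entrez 12236) had the highest log2 fold change of all members and Bub1 a negative one. Bub1b was at 12.7, 5.90 and 4.89 CPM in the KO libraries, against 2.55, 0.719 and 4.31 CPM in the WT libraries. Each KO library was above the highest WT library, KO3 by a narrow margin, at a log2 fold change of 1.62 (SE 0.82, edgeR adjusted p = 0.569). Bub1 was at 2.004, 0.0608 and 0.627 CPM in the KO libraries, against 6.70, 1.34 and 0 CPM in the WT libraries, with 1 count in KO2 and 0 in WT3, and its SE of 1.66 exceeded its log2 fold change of -1.55. Partners of the anaphase-promoting complex overlapped between the groups. Its activator Cdc20 was at 2.81, 6.08 and 4.83 CPM in the KO libraries, against 5.56, 1.85 and 4.99 CPM in the WT libraries. Its ubiquitin-conjugating enzyme Ube2c was at 3.52, 2.92 and 4.89 CPM in the KO libraries, against 12.6, 0.822 and 10.04 CPM in the WT libraries, with WT2 below the other 5 libraries.

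Tpx2 (Entrez 72119), which activates the kinase Aurka on the spindle, rested on a single library. It was at 0.668, 1.22 and 1.19 CPM in the KO libraries, against 14.1, 0.822 and 0.567 CPM in the WT libraries. WT1 held 150 counts, whereas the other WT libraries held 8 and 10, and the log2 fold change of -2.33 (SE 1.27, edgeR adjusted p = 0.59) became 0.56 without WT1. In the authors' deposited table Tpx2 was the 1 member of 37 with an adjusted p to pass, where 2.41% of 13509 rows passed, at a log2 fold change of -4.30 (adjusted p = 0.0111). In the authors' deposited table its mean normalized signal was 73.8, 1.63 times the mean of 45.4 that the deposited counts gave after scaling by size factors. Among the 37 other members this ratio lay between 0.801 and 1.26.

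Aurka itself was at 0.757, 3.53 and 2.63 CPM in the KO libraries, against 7.92, 5.96 and 3.23 CPM in the WT libraries, and KO2 lay above WT3. Its log2 fold change was -1.31 (SE 0.83, edgeR adjusted p = 0.641). The kinase Plk1, which acts at the spindle poles and in cytokinesis, had the lowest counts of all members, from 0 in KO2 to 20 in the library labelled KO1, and no difference could be detected at this depth. Tacc3, which strengthens spindle fibres, was at 4.81, 17.04 and 14.3 CPM in the KO libraries, against 4.72, 1.95 and 16.5 CPM in the WT libraries, where the groups overlapped. Hmmr, a spindle protein, was at 5.21, 2.74 and 3.95 CPM in the KO libraries, against 8.87, 3.49 and 9.64 CPM in the WT libraries.

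Stmn1, which takes microtubules apart and is found in many proliferating cells, was 1 of the 9 members with a positive log2 fold change. It was at 13.8, 31.1 and 22.8 CPM in the KO libraries, against 16.9, 5.24 and 4.25 CPM in the WT libraries. WT1 was above the library labelled KO1, while WT2 and WT3 were below all KO libraries, and the log2 fold change was 1.36 (SE 0.62, edgeR adjusted p = 0.542). Nusap1, which bundles spindle microtubules, was at 11, 1.34 and 2.63 CPM in the KO libraries, against 10.2, 8.74 and 3.01 CPM in the WT libraries. It was high in the library labelled KO1 and low in KO2 and KO3. Cdca3, which takes part in mitotic entry, was at 1.74, 0.0608 and 1.88 CPM in the KO libraries, against 3.58, 2.26 and 0.227 CPM in the WT libraries, with 1 count in KO2 and 4 in WT3.

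The centromere genes overlapped between the groups. Cenpa, the histone H3 variant that marks centromeres, was at 148, 88.8 and 111 CPM in the KO libraries, against 192, 116 and 106 CPM in the WT libraries. The motor Cenpe was at 6.55, 11.7 and 9.53 CPM in the KO libraries, against 16.4, 2.67 and 4.20 CPM in the WT libraries, and Cenpf, which binds the outer kinetochore, was at 2.09, 4.81 and 6.27 CPM in the KO libraries, against 29.7, 7.61 and 1.02 CPM in the WT libraries. WT1 was highest in each of the 3. Per kilobase of exon (GENCODE M21 lengths), Cenpa averaged 70.8 CPM per kb in KO and 83.99 CPM per kb in WT, above Mki67 at 14.4 CPM per kb in KO and 24.2 CPM per kb in WT. On that scale only Pcna, at 72.2 CPM per kb in KO and 93.8 CPM per kb in WT, was above it among the members, and Plk1 was at 0.240 CPM per kb in KO and 0.272 CPM per kb in WT.

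The summed CPM of the S-phase members was lower in every KO library than in every WT library, which was not so for the mitotic members, nor for the mean log2 CPM of either class. The S-phase sum was 193, 202 and 203 CPM in the KO libraries, against 363, 245 and 276 CPM in the WT libraries, or 199 ± 5.26 CPM in KO and 295 ± 61.2 CPM in WT (SD, n = 3 each). Pcna alone made up 54.98% of this sum in KO and 48.4% in WT. Rrm1 made up 13.0% in KO and 15.3% in WT, and Rrm2 3.38% in KO and 6.63% in WT. These are the 3 S-phase members whose groups did not overlap one by one, so the sum largely repeats them. In each of the other 7 S-phase members the groups overlapped. A sum without Pcna, Rrm1 and Rrm2 was not computed, so a separation of the class beyond these 3 genes was not shown. The mitotic sum was 577, 567 and 570.4 CPM in the KO libraries, against 1127, 538 and 634 CPM in the WT libraries. WT2 lay below all KO libraries, WT3 slightly above them, and WT1 far above them. The mean log2 CPM, in which each member has the same weight, was 2.84, 3.24 and 3.37 over the S-phase members in the KO libraries, against 4.08, 2.86 and 3.47 in the WT libraries, so that KO2 and KO3 were above WT2. Over the mitotic members it was 2.65, 2.39 and 2.69 in the KO libraries, against 3.79, 2.01 and 2.40 in the WT libraries. With KO2 and KO3 summed into 1 library, the S-phase sums were 194 and 205 CPM in KO, against 364, 246 and 277 CPM in WT. With sums over members chosen by name, no test was made.

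**Figure D3:**
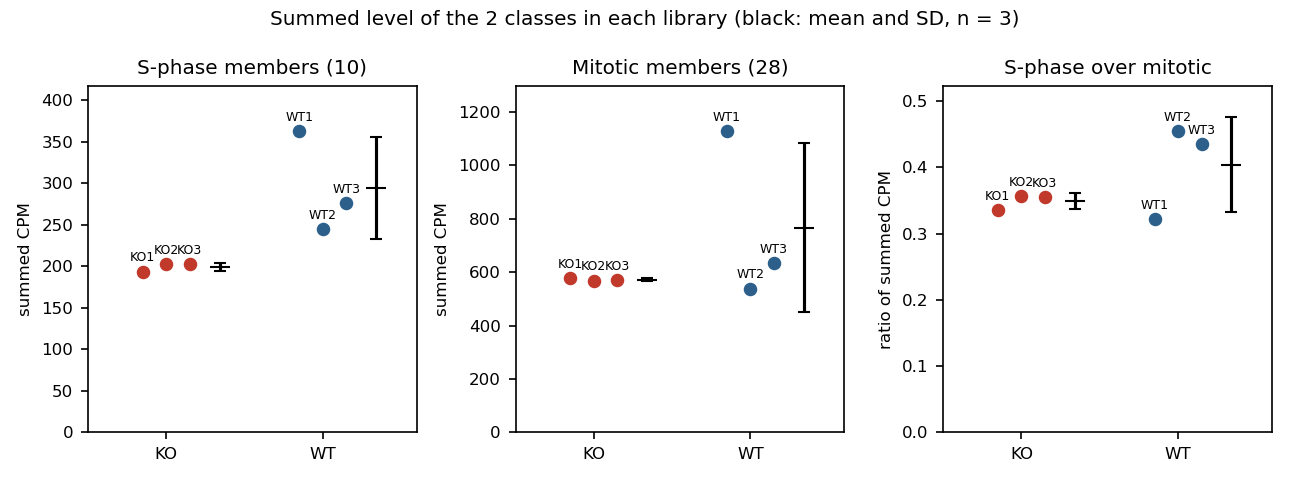
Summed CPM of the 10 S-phase members (left) and the 28 mitotic members (middle), and the ratio of the sums (right), for each library, KO left of WT, with the mean and SD of 3 libraries in black. The S-phase sums, in which Pcna, Rrm1 and Rrm2 are included, do not overlap (193 to 203 in KO, 245 to 363 in WT). WT1 is high in both sums.

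The medians of the log2 fold changes were -0.59 over the S-phase members, 9 of 10 negative, and -0.47 over the mitotic members, 20 of 28 negative. The difference between these medians, S-phase minus mitotic, was -0.12, and it ranged from -0.40 to 0.057 when 1 library was left out. In each library, the mean log2 CPM of the S-phase members minus that of the mitotic members was 0.188, 0.857 and 0.675 in the KO libraries, against 0.286, 0.845 and 1.06 in the WT libraries, where the groups overlapped.

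The mitotic median depended on WT1. Without this library the S-phase median was -0.31, with 3 of 10 members positive, and the mitotic median was 0.089, with 18 of 28 positive, against -0.0089 over all genes. WT1 was the highest of the 6 libraries in 20 of the 38 members (52.6%), against 17.1% of all genes tested, in 4 of 10 S-phase and 16 of 28 mitotic members. WT2, with the RNA integrity number of 5 and the smallest total count, was lowest in 13 of 38 (34.2%), against 26.7% of all genes. These were 1 of 10 S-phase and 12 of 28 mitotic members, and 7 mitotic members had fewer than 10 counts in WT2. Without WT2 the medians were -0.54 for the S-phase and -0.59 for the mitotic members. Within the sort batch shared by the library labelled KO1 and WT1, the median log2 difference of that pair was -0.99 over the S-phase and -0.97 over the mitotic members, against 0.014 over all genes, and the other batches held 1 group each. Without the library labelled KO1, in which Il23r lay inside the WT range, the medians were -0.65 for the S-phase and -0.66 for the mitotic members. With KO2 and KO3 summed they were -0.62 for the S-phase and -0.40 for the mitotic members.

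**Figure D4:**
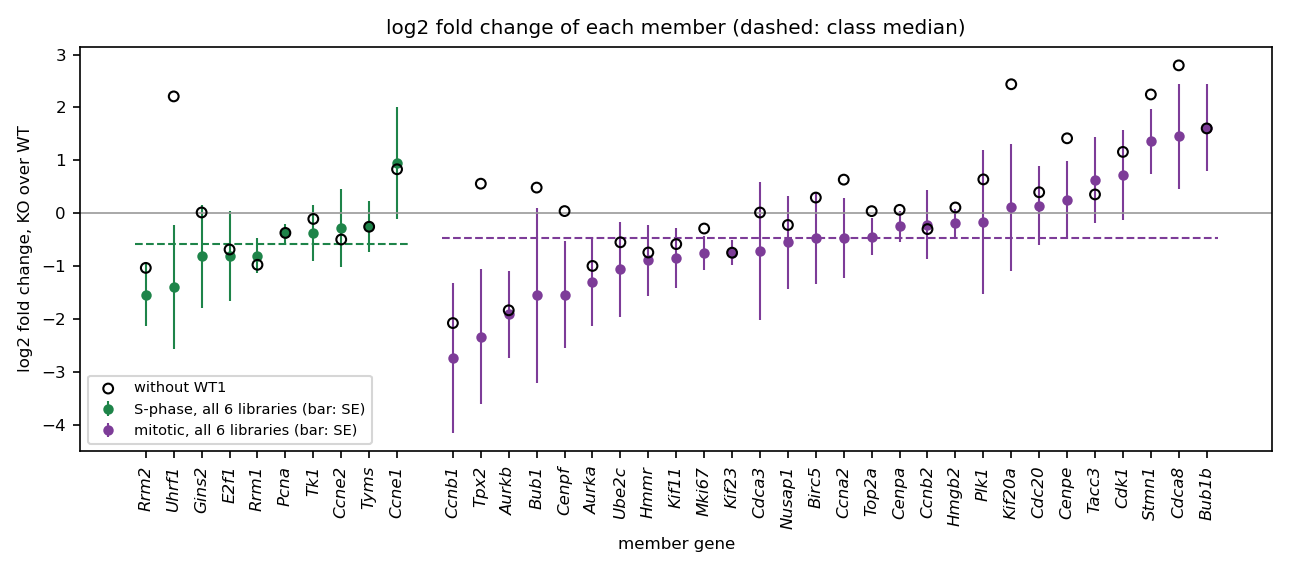
log2 fold change of KO over WT for each member (vertical axis), S-phase in green and mitotic in purple, with SE bars, class medians as dashed lines and the value without WT1 as an open circle. Open circles of Uhrf1, Tpx2, Bub1, Cenpf and Ccna2 lie on the other side of 0, while those of Kif23, Pcna, Rrm1, Rrm2 and Bub1b keep their sign.

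**Figure D5:**
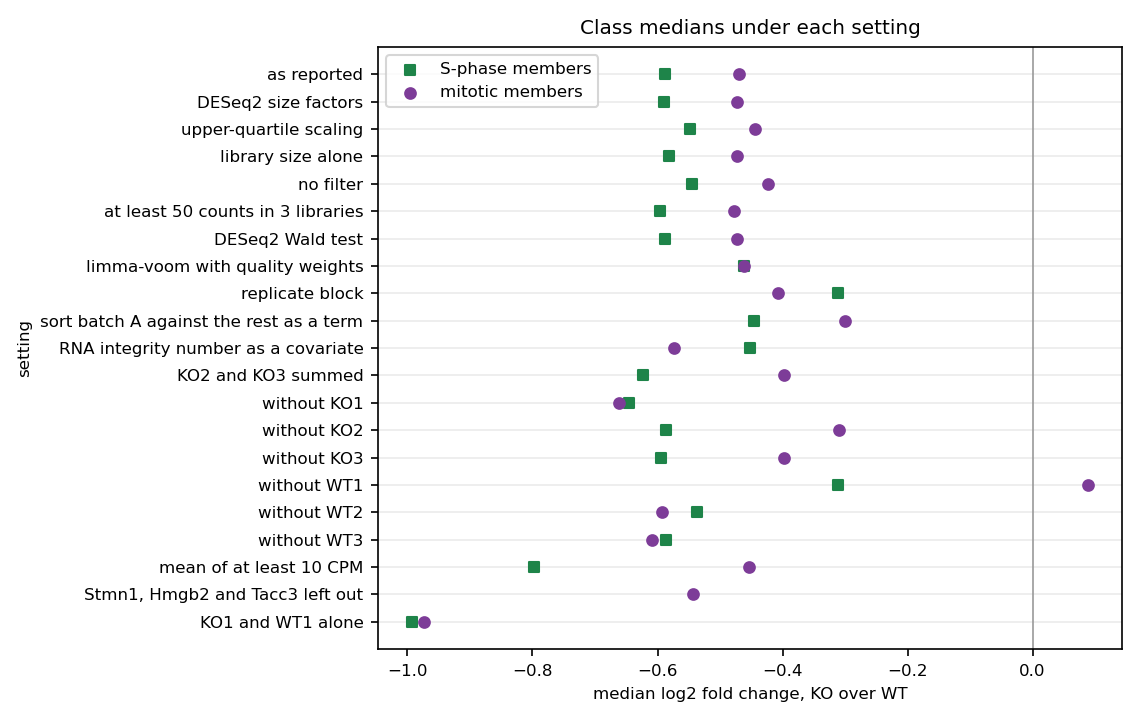
Median log2 fold change of KO over WT (horizontal axis) of the S-phase members (green squares) and the mitotic members (purple circles) under each setting (vertical axis). The S-phase median stays below 0 in each, and the mitotic median is above 0 without WT1 alone (0.089).

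Other genes of the cell cycle were read from 5 lists, in each of which 0 genes passed over all genes in either direction (edgeR; limma-voom likewise 0). In DESeq2, Cdc7, Fen1, Incenp and Mcm2 passed, where 1.89% of all genes did. Over all genes tested in edgeR, 52.6% were negative. At an unadjusted p under 0.05 (edgeR), 4.35% of all genes were lower and 5.02% higher in KO. Of 37 tested S-phase genes outside the members, 24 were negative, their median log2 fold change being -0.24, or -0.12 without WT1. At an unadjusted p under 0.05, 5 of them were lower and 3 higher in KO. Fen1, the nuclease that trims Okazaki fragments, was at 2.40, 11.01 and 9.40 CPM in the KO libraries, against 0.472, 0.617 and 1.19 CPM in the WT libraries, and Rpa2, a subunit of the single-strand binding protein, was at 16.7, 19.5 and 14.3 CPM in the KO libraries, against 10.6, 4.11 and 2.21 CPM in the WT libraries. Each KO library was above each WT library in both. Dnmt1, the maintenance DNA methyltransferase, was at 87.4, 79.2 and 84.3 CPM in the KO libraries, against 144, 98.5 and 160.5 CPM in the WT libraries. Cdc7, the kinase that fires replication origins, was at 5.70, 4.56 and 5.02 CPM in the KO libraries, against 18.1, 11.4 and 12.8 CPM in the WT libraries, and in both the KO libraries were lower throughout. Adjusted p was 0.426 for Fen1, 0.505 for Rpa2, 0.487 for Dnmt1 and 0.487 for Cdc7 (edgeR).

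Of 43 tested genes of G2 and mitosis outside the members, 27 were negative, against 52.6% of all genes. At an unadjusted p under 0.05, 5 had lower levels in KO, against 4.35% of all genes, and 0 had higher levels, against 5.02%. Their median was -0.27, which was 0.032 without WT1, as in the mitotic members. Incenp, the scaffold of the chromosomal passenger complex, was at 16.9, 23 and 27.6 CPM in the KO libraries, against 38.9, 44.9 and 59.9 CPM in the WT libraries, and Smc4, a condensin subunit, was at 280.1, 234 and 214 CPM in the KO libraries, against 324, 410.4 and 353 CPM in the WT libraries. Both lay lower in each KO library than in any WT library, with log2 fold changes of -1.09 (SE 0.32, edgeR adjusted p = 0.435) for Incenp and -0.58 (SE 0.19, edgeR adjusted p = 0.474) for Smc4. Cks1b, which binds cyclin-dependent kinases, was at 5.03, 5.72 and 4.45 CPM in the KO libraries, against 2.36, 0 and 0.170 CPM in the WT libraries. Cks1b thus lay higher in each KO library than in any WT library. Of the 43 genes, 7 lay lower in every KO library (against 8.01% of all genes tested) and 1 higher (against 9.68%). Psrc1, a spindle protein, was at 7.53, 0.487 and 1.003 CPM in the KO libraries, against 0.660, 0 and 0 CPM in the WT libraries, where the library labelled KO1 alone was high.

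Among 15 G1 cyclins, kinases and E2F factors, 8 were negative with a median of -0.26, or -0.10 without WT1, and 0 had an unadjusted p under 0.05. Cyclin D2, Ccnd2, was at 242, 330.4 and 283 CPM in the KO libraries, against 289, 508 and 299 CPM in the WT libraries, and E2f2 was at 22.2, 15.4 and 22.3 CPM in the KO libraries, against 17.3, 48.7 and 20.3 CPM in the WT libraries, both with WT2 highest. E2f6, a repressor of the E2F family, was at 9.93, 10.5 and 8.40 CPM in the KO libraries, against 5.66, 6.27 and 4.94 CPM in the WT libraries. It was the 1 gene of the 15 that lay higher in every KO library (against 9.68% of all genes tested), and 0 lay lower (against 8.01%). Skp2, which targets a cyclin-dependent kinase inhibitor, was at 8.86, 8.70 and 4.20 CPM in the KO libraries, against 1.23, 7.30 and 1.30 CPM in the WT libraries. Of 17 tested inhibitors and proteins of the RB and DREAM complexes, which hold the cycle back, 13 were negative with a median of -0.29, or -0.24 without WT1, and 0 had an unadjusted p under 0.05. Rbl2 was at 211, 267 and 231 CPM in the KO libraries, against 291, 339 and 291 CPM in the WT libraries, with every KO library lower. Of these 17 genes, 3 lay lower in every KO library (against 8.01% of all genes tested) and 0 higher (against 9.68%). Rb1 was at 156, 146 and 129 CPM in the KO libraries, against 153, 252 and 180.4 CPM in the WT libraries. Trp53 was at 92, 112 and 130.1 CPM in the KO libraries, against 87.8, 48.2 and 107 CPM in the WT libraries, and Cdkn2c at 17.2, 7.48 and 11.3 CPM in the KO libraries, against 12.2, 2.57 and 5.56 CPM in the WT libraries. In the 6 helicase genes of the MCM complex the median was -0.46, or -0.39 without WT1. At an unadjusted p under 0.05, 0 had higher levels in KO and 2 had lower levels. These were Mcm2, at 8.37, 7.36 and 13.5 CPM in the KO libraries, against 31.03, 32.2 and 36.5 CPM in the WT libraries, and Mcm4, at 32.2, 36.1 and 32.5 CPM in the KO libraries, against 48.1, 89.8 and 46.97 CPM in the WT libraries, while Mcm3 and Mcm6 had log2 fold changes of 0.074 and 0.16.

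Markers of the sorted cells and of other cells of the colon were summed beside these results. The 8 Treg and T cell genes found summed to 8135 to 8322 CPM in KO and 7924 to 8900.2 CPM in WT, with at least 10 counts of each in every library. Ctla4 was at 2740.4, 2710.0 and 2506 CPM in the KO libraries, against 3106, 2420.3 and 2937 CPM in the WT libraries, and Ptprc, which encodes CD45, at 1289, 1132 and 1027 CPM in the KO libraries, against 1359.9, 1557 and 1389.8 CPM in the WT libraries. The 14 epithelial genes found summed to 71.9 to 157 CPM in KO and 23.8 to 52.01 CPM in WT, with Olfm4 at 0 counts in all 6 libraries. Among them were Clca1 at 24.3, 55.2 and 40.1 CPM in the KO libraries, against 1.51, 1.34 and 0 CPM in the WT libraries and Fcgbp at 14.3, 46.97 and 40.2 CPM in the KO libraries, against 0, 0.103 and 0 CPM in the WT libraries. The 13 genes of macrophages, monocytes and dendritic cells summed to 425 to 806 CPM in KO and 277 to 422 CPM in WT, among them Lyz2 at 213, 99.3 and 65.5 CPM in the KO libraries, against 43.8, 44.3 and 91.8 CPM in the WT libraries and Csf1r at 81.4, 66.6 and 47.1 CPM in the KO libraries, against 45.6, 46.1 and 70.9 CPM in the WT libraries. Both sums were higher in each KO library than in any WT library, the macrophage sum narrowly (425 CPM in KO3, 422 CPM in WT3), and Lyz2 and Csf1r overlapped. All 13 macrophage genes had a positive log2 fold change (median 0.95), and 9 of 11 tested epithelial genes did (median 1.67). At an unadjusted p under 0.05 (edgeR), 8 macrophage and 4 epithelial genes were higher in KO, against 5.02% of all genes, and 0 were lower. Of all marker genes, Fcgbp alone passed in edgeR, with a higher level in KO, and Clca1, Fcgbp, Zg16 and Fcgr3 passed in DESeq2.

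The 8 B and plasma cell genes summed to 397 to 467 CPM in KO and 279 to 956 CPM in WT, among them Jchain at 306, 293 and 213 CPM in the KO libraries, against 161, 718 and 719 CPM in the WT libraries and Xbp1 at 143, 132 and 152 CPM in the KO libraries, against 101, 219.7 and 132 CPM in the WT libraries. The 5 cytotoxic T and NK cell genes summed to 33 to 55.1 CPM in KO and 33.3 to 45.9 CPM in WT, with Ncr1 at 0 counts throughout, Nkg7 at 30.8, 53.2 and 42.8 CPM in the KO libraries, against 41.9, 29.2 and 27.7 CPM in the WT libraries and Klrb1c at 0, 0 and 0.752 CPM in the KO libraries, against 0.0943, 3.60 and 5.67 CPM in the WT libraries. The 5 stromal genes summed to 45.4 to 59.9 CPM in KO and 46.5 to 96.7 CPM in WT, with Pecam1 at 44.04, 44.2 and 51.4 CPM in the KO libraries, against 51.1, 34.2 and 70.97 CPM in the WT libraries and Col1a1 at 0.312, 5.72 and 3.82 CPM in the KO libraries, against 13.4, 1.03 and 12.9 CPM in the WT libraries. WT1, the library with the highest sums of S-phase and mitotic members, held 33.01 CPM of the epithelial, 285 CPM of the macrophage and 279 CPM of the B and plasma cell genes, the last being the lowest of the 6 libraries. The part of these other cells in the values of the members was not tested.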

How the data were processed

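The 6 libraries, 3 KO and 3 WT, were prepared from amplified RNA (Ovation RNASeq System V2), per the labels' protocols. For processing, the submitters' notes name DESeq2 1.34.0, Salmon 1.4.0, fastp 0.20.0 and R 4.1.2 without saying what each did. Strand, build and annotation are not stated in the sources used. Per the file headers, the deposited table gives an estimated count for each gene and library, in whole numbers. From the authors' comparison of KO over WT it also gives, per the file headers, a mean normalized signal, a log2 fold change with its error, a test score and a p-value before and after adjustment. A further 6 columns whose names match no sample were not used.

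Rows sharing an Entrez identifier were summed (32161 rows to 32090 genes). Genes kept by filterByExpr (minimum count 10, minimum total 15) numbered 12557. After TMM scaling, edgeR 4.0.16 (R 4.3.3) fitted its quasi-likelihood model with a genotype term alone, and p-values were adjusted by Benjamini-Hochberg over all genes at a threshold of 0.05. The procedure was tested on simulated data. These held no outlying library, close pair of libraries, sort batch or RNA integrity effect, so that test does not cover such differences. SE is the log2 fold change divided by the square root of F, and log2 CPM used a prior count of 2. DESeq2 1.42.0 (adjusted p empty for 5114 of 18630 genes) and limma 3.58.1 were alternatives, beside other scalings and filters, a replicate block, sort batch, RNA integrity and each library left out. P-values set the group difference against the spread between libraries. This spread holds differences between pools of mice together with those of sort batch, RNA integrity and amplification. Counts after amplification without molecular identifiers are not independent molecules, so that precision is below what counting alone gives.

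The members and gene lists were chosen with earlier results of these data known. All 38 members are named. In each context list up to 2 genes in each direction with the smallest p are named, in each marker list the 2 with the highest mean CPM (178 of 181 list names were found), and Il23r and Foxp3 as checks. Xist, and the marker genes that passed in DESeq2, were named after their values were seen. Promoters are from RefSeq (GRCm38.p6), with the first window by position for Uhrf1.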

Additional observations from a re-analysis of the deposited data

How the results depend on the processing

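Depth limits the low members, such as Plk1, Bub1, Cdca3, Kif20a and Ccnb1, which had under 10 counts in at least 1 library. Of the 637 member values recomputed, 604 kept their sign and their side of the threshold, 1 passed (Kif23 in DESeq2's Wald test, adjusted p = 0.039) and 32 in 19 members changed sign, 12 of them without WT1. The cause was not tested. Genes called over all genes numbered 3, but 9 with no filter, 255 in DESeq2 (1 of them a member), 1 with a term for RNA integrity, 1 with KO2 and KO3 summed, and 1 to 4 with a library left out. Members whose groups did not overlap numbered 6 (15.8%, against 17.7% of all genes), and 7 to 14 with a library left out (18.4% to 36.8%, against 20.3% to 33.99% of all genes in those layouts). The 14 came without WT2, against 29.4% of all genes there.

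The mitotic median ranged from -0.66 to 0.089 with a library left out, the upper end without WT1. The S-phase median kept its sign in each setting, while the S-phase minus mitotic difference, -0.12, ranged from -0.40 to 0.057 with a library left out, was 1.69e-05 in limma-voom with quality weights and 0.12 with the RNA integrity number. Leaving Stmn1, Hmgb2 and Tacc3 out of the mitotic class gave -0.044, and keeping only members with a mean of at least 10 CPM, a setting chosen after seeing the data as was the pair of the library labelled KO1 and WT1, gave -0.34.

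With the replicate number as a block, 3 genes and 0 members were called, the S-phase minus mitotic difference was 0.095 and Uhrf1 was 0.74. The libraries share only a number: deviations of same-numbered libraries from their group means correlated at 0.00931, 0.0489 and 0.0258, and WT1 correlated better with KO3 (0.0508). Members also changed sign to 0.78 for Uhrf1 with batch A as a term, to -0.0043 for Cdk1, 0.041 for Gins2 and 0.29 for Uhrf1 in limma-voom, to -0.25 for Cdc20, -0.20 for Kif20a and -0.18 for Cenpe with the RNA integrity number, and to 0.044 for Plk1 with KO2 and KO3 summed. With a library left out, the log2 fold changes that changed sign ranged as follows: Top2a -0.71 to 0.042, Ccna2 -0.87 to 0.64, Ccnb2 -0.40 to 0.028, Cdc20 -0.22 to 0.40, Cdca3 -1.24 to 0.016, Birc5 -0.90 to 0.30, Bub1 -2.92 to 0.49, Plk1 -0.78 to 0.64, Kif20a -0.43 to 2.44, Cenpa -0.47 to 0.067, Cenpe -0.16 to 1.42, Cenpf -2.09 to 0.043, Tpx2 -2.86 to 0.56, Hmgb2 -0.41 to 0.11, Tyms -0.66 to 0.068, Gins2 -1.39 to 0.017, Uhrf1 -1.94 to 2.21, Ccne2 -0.49 to 0.066. Those that kept their sign but moved by over 1.5 times ranged as follows: Mki67 -1.01 to -0.29, Cdk1 0.24 to 1.16, Cdca8 0.89 to 2.80, Bub1b 1.07 to 2.26, Aurkb -2.97 to -1.47, Kif11 -1.29 to -0.53, Ube2c -1.59 to -0.55, Nusap1 -1.87 to -0.093, Stmn1 1.03 to 2.25, Tacc3 0.16 to 1.85, Rrm1 -0.97 to -0.47, Tk1 -1.05 to -0.11, Ccne1 0.44 to 1.48.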

Other observations

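The members also differed in how far libraries of one group spread. The median SD of log2 CPM over 3 libraries was 0.47 in KO and 0.50 in WT over the S-phase members, and 0.57 in KO and 1.13 in WT over the mitotic members. Over all genes tested it was 0.34 in KO and 0.63 in WT, and 74.4% of all genes had the larger SD in WT, as did 5 of 10 S-phase and 22 of 28 mitotic members. KO2 and KO3, the closest pair of libraries, are both in the KO group. No SD with these libraries summed was computed. The widest WT ranges were in Gins2, where the highest WT library was 61.02 times the lowest, Uhrf1 (46.7 times) and Cdca8 (36.7 times), and the narrowest in Pcna (1.09 times) and Kif23 (1.21 times), leaving out Ccnb1 and Bub1, which had a WT library at 0 counts. These genes were named after their values were seen.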
